A study of Homo sapiens with 12 samples.

Results

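The comparison is between the libraries labelled U251T and those labelled U251P, both without drug. Its members were taken by column name from the count table, 3 vehicle libraries of U251P and 3 vehicle libraries of U251T, which makes 6 of the 12 libraries of the series, and every one of the 60107 genes in the table was used. The study measured how carmofur, an inhibitor of acid ceramidase, changes transcripts in U251 glioblastoma cells and how that relates to migration. U251 is an established human glioblastoma line, and the labels give the organism as Homo sapiens. The title of the deposited series names glioblastoma resistant to temozolomide, but the labels do not say what the letters P and T stand for, nor how the lines were derived.

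Cells of each line were seeded, kept without serum for 16 h, and then given full medium with DMSO, the vehicle, for 24 h before total RNA was taken. The paper puts the vehicle in the medium without serum as well. Libraries were made with the QuantSeq 3′ FWD kit, a 3′ end method, so counts do not scale with transcript length. Levels are given as CPM, counts over a library total that edgeR adjusted by TMM scaling. The paper describes its experiments in general as biological triplicates, but the labels do not say that these replicates were separate cultures, so p-values measure a spread that may be technical.

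Glioblastoma cell lines are astrocytic tumour cells that commonly carry neural progenitor transcripts beside mesenchymal ones. Every nucleated human cell type also carries transcripts that serve here as a reference, those of its mitochondrial genome and, in nearly all cells, those of the class I antigen complex. Over evolution, copies of mitochondrial genes and of transcribed messenger RNAs were inserted into the nuclear genome, and most of these pseudogene copies give little RNA of their own.

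Total counts were 5064504, 3295045 and 5263645 in the U251P libraries and 1300727, 2817379 and 566061 in the U251T libraries. A count of 0 in all 3 libraries of a line allows up to 3 counts, which is 0.227 CPM over the U251P libraries and 0.648 CPM over those of U251T. Bounds and intervals cover counting error only, because reads may be PCR copies and the labels mention no molecular identifiers. When every library was reduced to 566061 counts, the total of the smallest, 12805 ± 231 genes had a read in U251P and 11619 ± 256 in U251T (SD, n = 3 libraries each). The 10 most abundant genes took 21.5 ± 2.44% of the counts in U251P and 7.49 ± 0.186% in U251T.

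The U251T libraries went against their labels, human cells of a glioblastoma line, in several groups of genes, and this bears on all comparisons that follow. Genes of the mitochondrial genome took 19.5%, 20.6% and 23.9% of the counts in the U251P libraries and 0.455%, 0.354% and 0.428% in those of U251T. Pseudogenes took 0.273%, 0.279% and 0.307% in U251P and 11.0%, 11.7% and 10.8% in U251T. The lines did not overlap in either share, with an exact two-sided permutation p = 0.1, the smallest that 3 libraries against 3 can give. B2M, the light chain of the class I antigen complex carried by nearly all human cells, had 8015, 5655 and 9100 counts in U251P and 1, 6 and 3 counts in U251T. SOX2, a neural progenitor gene, had 813, 322 and 636 counts in U251P and 0 counts in each U251T library, and NES, another, had 1904, 1512 and 2051 counts in U251P and 2, 1 and 0 counts in U251T. GFAP, which encodes the astrocyte filament protein, did not go against the label of U251T. It was present in U251T with 102, 154 and 47 counts and nearly absent in U251P with 0, 1 and 0 counts.

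Reads were counted on human genes by the authors, and the reads themselves were not analysed here. Which species or cells the RNA labelled U251T came from was therefore not tested, and cell identity, species and mapping cannot be told apart for the results below. No cell type name is given to these libraries, and U251T in the text means the libraries with that label.

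**Figure D1:**
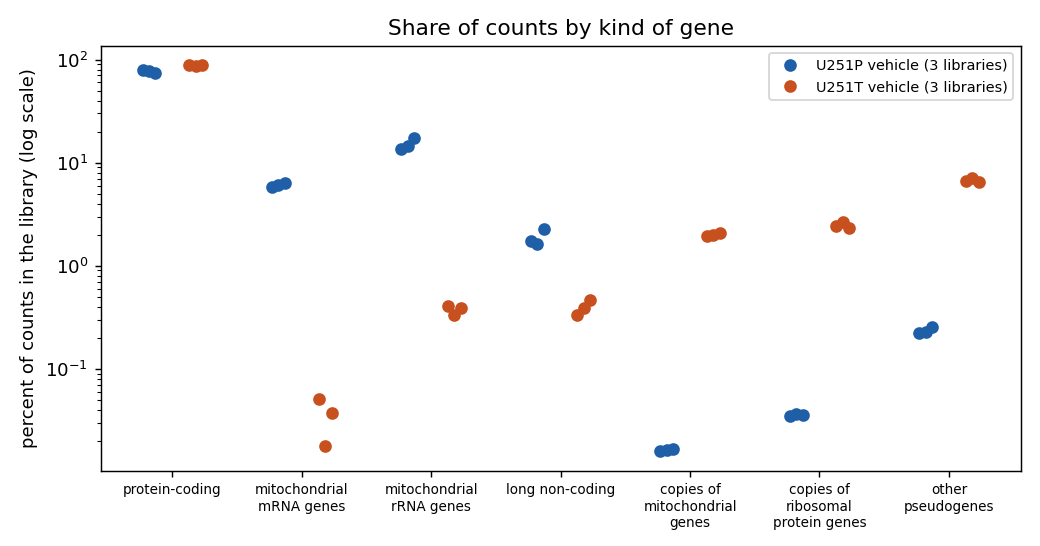
Percent of each library's counts in each kind of gene, on a log scale, with a point for each of the 3 vehicle libraries of U251P (blue) and of U251T (orange). Mitochondrial transcripts of both kinds and long non-coding genes lie lower in all 3 U251T libraries, and the 3 kinds of pseudogene lie higher.

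The shares differed in the same way for each kind of mitochondrial transcript and of pseudogene. Mitochondrial messenger RNAs took 6.09 ± 0.324% of the counts in U251P and 0.0351 ± 0.0165% in U251T, and mitochondrial ribosomal RNAs 15.2 ± 1.96% and 0.377 ± 0.0358% (SD, n = 3 libraries a line). Copies of mitochondrial genes took 0.0163 ± 3.89e-04% in U251P and 2.01 ± 0.0749% in U251T. Copies of ribosomal protein genes took 0.0356 ± 8.49e-04% and 2.46 ± 0.176%. Long non-coding genes moved with the mitochondrial ones, at 1.87 ± 0.338% in U251P and 0.395 ± 0.0641% in U251T. Protein-coding genes outside the mitochondrial genome took 76.2 ± 2.64% and 87.7 ± 0.491%.

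Most genes differed between the lines. The edgeR quasi-likelihood test covered 12047 genes above a filter of about 3.27 CPM, and 10474 (86.9%) had an adjusted p under 0.05. Of these, 4736 (39.3% of those tested) were higher and 5738 (47.6%) lower in U251T, and 2589 (21.5%) were over 4-fold higher and 4140 (34.4%) over 4-fold lower. The median log2 fold change of all genes tested was -0.33, and these values are the background for each group of genes below. Many genes passed the filter through a single line, 3778 through U251P and 2018 through U251T, and this way of passing favours genes that differ. In the lists below it also largely fixes the direction of such members, and so weighs on the medians. Among the 6162 genes above the filter in every library of both lines, 4795 (77.8%) differed, 2740 higher and 2055 lower, with a median of 0.24.

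Presence in a single line was frequent in both directions but fell on different kinds of gene. Of the 8215 genes with a mean of at least 10 CPM in U251P, 1395 (17.0%) had at most 3 counts over the 3 U251T libraries, and 717 of these had 0. In the other direction it was 919 of 6924 genes (13.3%), 586 of them with 0 counts in U251P. The shares use unlike floors, because 3 counts are 0.648 CPM over the U251T libraries and 0.227 CPM over those of U251P. Protein-coding genes made up 1267 of the 1395 genes near 0 in U251T, out of 8007 at 10 CPM or more in U251P. Long non-coding genes made up 84 of the 1395, out of 114 at that level, and pseudogenes 21, out of 44. Of the 919 genes near 0 in U251P, 135 were protein-coding, out of 5851 at 10 CPM or more in U251T. Pseudogenes made up 775 of those 919, out of 1017 pseudogenes at 10 CPM or more in U251T. Over the whole test, 1365 of 1458 pseudogenes were higher and 81 lower in U251T, with a median log2 fold change of 7.77. Long non-coding genes had 22 higher and 223 lower among 249 tested, with a median of -7.20, and protein-coding genes 3320 higher and 5374 lower among 10240, with a median of -0.75.

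**Figure D2:**
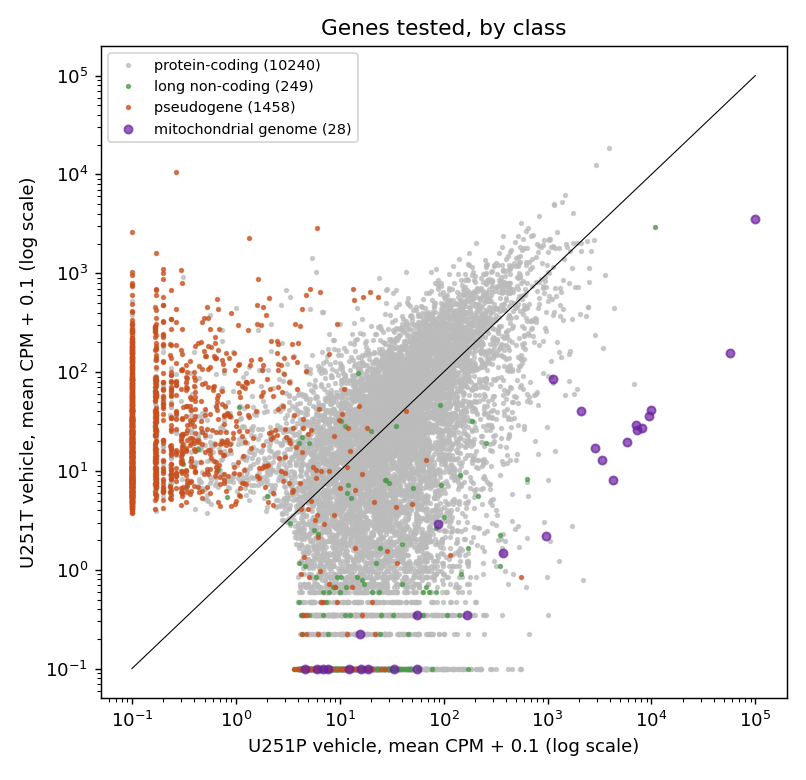
Mean CPM of each tested gene in the 3 U251P vehicle libraries (x axis) and the 3 U251T vehicle libraries (y axis), both on log scales after adding 0.1, with a colour for each class of gene. Most of the 1458 pseudogenes stack near the left edge, low in U251P, the 28 tested genes of the mitochondrial genome lie far below the diagonal line of equal levels, and protein-coding genes (10240) spread on both sides.

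All 28 tested genes of the mitochondrial genome were lower in U251T (median log2 fold change -8.09). The 15 that encode proteins or ribosomal RNAs had a median of -8.23, or -9.14 without replicate 1 and -7.53 without replicate 2 of U251T, and 4 of them passed the filter through U251P alone. MT-CO3 (ENSG00000198938), a subunit of cytochrome oxidase, had 44019, 34824 and 51788 counts in U251P and 86, 35 and 27 counts in U251T, a log2 fold change of -8.08 (SE 0.34, edgeR adjusted p = 9.03e-19). The 3 U251T libraries lay far below every U251P library. MT-ATP6, a subunit of the ATP synthase, had 27592, 19338 and 29434 counts in U251P and 36, 27 and 13 counts in U251T, a log2 fold change of -8.36 (SE 0.27, edgeR adjusted p = 1.32e-21). MT-ND6, the gene of the light strand, had 744, 495 and 1010 counts in U251P and 1, 0 and 0 counts in U251T, 787-fold lower in U251T with a 95% counting interval from 141 to 31104 (edgeR adjusted p = 5.37e-18). Among these 15, MT-ND1 and MT-RNR2 fell least, with log2 fold changes of -3.76 (SE 0.16) and -4.79 (SE 0.26), and MT-RNR2, the large ribosomal RNA, still had 4949, 9348 and 2102 counts in U251T.

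Where U251P had its counts on the mitochondrial gene, U251T had counts on nuclear copies that differ from it. MTCO3P13 (ENSG00000264316), a copy of MT-CO3 on chromosome 17, had 0, 1 and 1 counts in U251P and 13303, 30689 and 5955 counts in U251T, MTCO3P17 on chromosome 2 had 0 counts in each U251P library and 3433, 6866 and 1566 counts in U251T, and MTCO3P22 on chromosome 5 had 0, 2 and 0 counts in U251P and 1430, 2593 and 714 counts in U251T. A stretch of the gene and of each of these copies is shown, because these copies differ from the gene within it. It is the last 120 bases of the gene over which these copies and MTCO3P12, described below, all align. Where the U251T reads fall within the copies was not examined. Each is given 5′ to 3′ from the GENCODE release 29 transcripts on GRCh38, and capitals mark bases that differ from MT-CO3 in the alignment. The stretches are chrM:9634-9753, plus strand, for MT-CO3, chr17:22531038-22531157, plus strand, for MTCO3P13 with 22 differences over 120 bases, chr2:202616866-202616978, plus strand, for MTCO3P17 with 39 differences of which 7 are gaps, and chr5:100051372-100051491, minus strand, for MTCO3P22 with 14 differences.
MT-CO3: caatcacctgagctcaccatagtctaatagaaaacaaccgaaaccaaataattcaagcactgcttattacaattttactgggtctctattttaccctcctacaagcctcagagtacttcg
MTCO3P13: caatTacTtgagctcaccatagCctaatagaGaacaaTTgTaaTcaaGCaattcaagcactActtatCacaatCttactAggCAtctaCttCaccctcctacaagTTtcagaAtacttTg
MTCO3P17: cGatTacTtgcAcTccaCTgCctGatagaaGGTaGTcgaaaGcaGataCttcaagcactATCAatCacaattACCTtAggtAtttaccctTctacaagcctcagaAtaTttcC
MTCO3P22: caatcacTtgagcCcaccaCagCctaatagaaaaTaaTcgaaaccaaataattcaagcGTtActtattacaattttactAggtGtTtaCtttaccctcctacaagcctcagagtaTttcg

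Over the aligned length, MTCO3P13 matched MT-CO3 at 83.7% of 781 positions, MTCO3P22 at 87.5% of 784 and MTCO3P17, a partial copy, at 76.3% of 523. MTCO3P12, a copy on chromosome 1 that is identical to MT-CO3 over the stretch shown, had 5 counts over the U251P libraries and 1 over those of U251T. MTCO3P13 was 71353-fold higher in U251T with a 95% counting interval from 19752 to 589200.0 (edgeR adjusted p = 4.09e-24). MTCO3P17 was at least 11300.0-fold higher in U251T (edgeR adjusted p = 2.76e-23). MTCO2P17, a copy of MT-CO2 with 72.5% identity, had 0, 0 and 1 counts in U251P and 2008, 4566 and 962 counts in U251T and was 21532-fold higher in U251T with a 95% counting interval from 3863 to 850560.0 (edgeR adjusted p = 4.09e-24). A copy closer to its gene went the other way, since MTATP6P1, with 98.5% identity to MT-ATP6, had 583, 368 and 570 counts in U251P and 1, 4 and 1 in U251T. This did not hold for every close copy, since MTCO1P40, with 96.0% identity to MT-CO1, had 29, 26 and 47 counts in U251P and 151, 409 and 115 in U251T.

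The difference in identity was seen over the 387 annotated copies of mitochondrial genes, 385 of which could be aligned over at least 100 positions. The copies with at least 50 counts numbered 5 in U251P, with a median identity of 98.0% and a range from 95.8% to 98.5%. In U251T they numbered 38, with a median of 76.3% and a range from 61.0% to 98.4%. Copies with at least 95% identity held 96.3% of the copy counts in U251P and 0.848% in U251T, while copies under 90% held 2.53% and 98.3%. Most annotated copies lie under 90% themselves, 364 of the 385 aligned, and 11 lie at 95% or more. The low identity in U251T is thus near that of the annotated copies, and U251P departs from it. Weighted by counts, the identity was 97.7% in U251P and 80.3% in U251T. Counts on near-identical copies and their genes are uncertain, because a read can match both. How much of the difference belongs to the RNA and how much to the mapping was not tested.

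**Figure D3:**
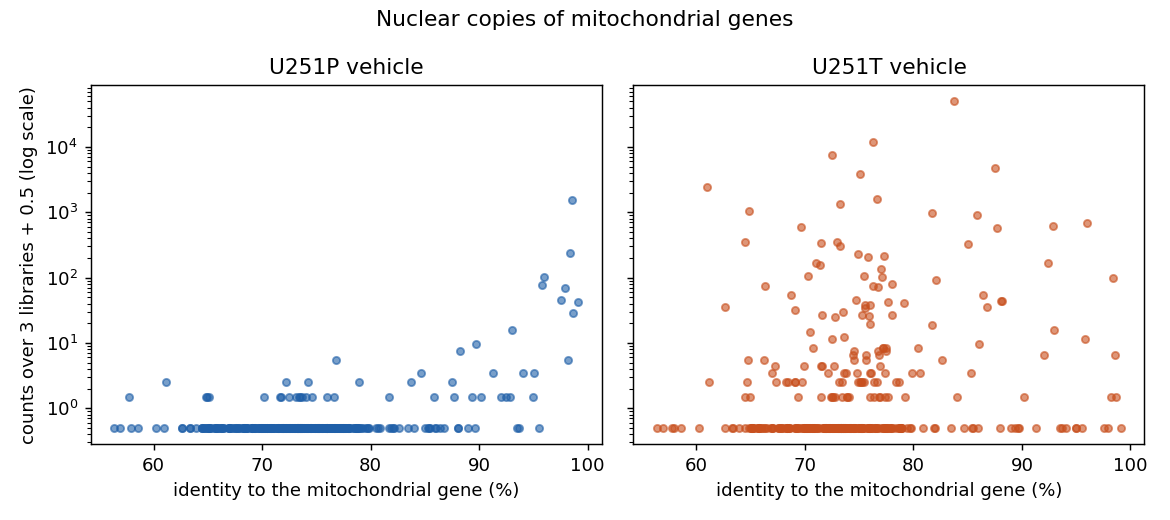
Counts over the 3 vehicle libraries of a line, plus 0.5, on a log scale (y axis) for each nuclear copy of a mitochondrial gene against its percent identity to that gene (x axis), with U251P on the left and U251T on the right. In U251P the copies with at least 50 counts sit above 95% identity, and in U251T most counts lie on copies under 90%.

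Copies of nuclear genes also held more of the counts in U251T. For 5595 copies named after 1405 parent genes with at least 50 counts together, the copies held 0.357 ± 0.0305 counts per 100 parent counts in U251P and 28.1 ± 0.435 in U251T (SD, n = 3 libraries each). For the 5208 copies of nuclear genes alone the values were 0.380 ± 0.0423 and 20.2 ± 0.208. Among these 5208, a copy had more counts than its parent for 6 copies in U251P and 217 in U251T. RPL10P15, a copy of a ribosomal protein gene, had 0, 1 and 0 counts in U251P and 1318, 3934 and 521 counts in U251T, whereas its parent RPL10 had 1573, 995 and 1540 counts in U251P and 173, 484 and 79 counts in U251T. In U251T the copy thus held more counts than the gene in each library. RPL41P2 had 23, 20 and 35 counts in U251P and 3723, 9447 and 1343 counts in U251T, and its parent RPL41 had 6334, 4458 and 7803 counts in U251P and 1202, 2547 and 418 counts in U251T. PABPC1P3, a copy of the gene for poly(A)-binding protein, had 7, 3 and 7 counts in U251P and 2779, 6704 and 1357 counts in U251T beside a parent, PABPC1, that was itself higher in U251T, with a log2 fold change of 2.25 (SE 0.19).

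Genes that arose or were duplicated in the primate lineage, or that lack a single counterpart in rodents, were listed as a further reference, and 39 of the 40 were in the table. Of the 15 tested, 0 were higher and 14 lower in U251T and 1 did not pass the test. Of these, 13 passed the filter through a single line, so the filter largely fixes the direction of the calls and the median. The median log2 fold change was -6.54, and -4.85 with genes at 0 set to their bounds. Their summed level was 614, 596 and 819.8 CPM in the U251P libraries and 21.6, 13.0 and 20.4 CPM in those of U251T. Of the 11 members at 10 CPM or more in U251P, 7 had at most 3 counts in U251T, and no member reached 10 CPM in U251T. APOBEC3C, a cytidine deaminase of antiviral defence, had 279, 125 and 310 counts in U251P and 2, 1 and 0 counts in U251T, 83.3-fold lower in U251T with a 95% counting interval from 28.4 to 405 (edgeR adjusted p = 7.30e-13). CD58, a ligand of the T cell receptor CD2, had 249, 161 and 302 counts in U251P and 0 counts in each U251T library, at least 83.1-fold lower in U251T (edgeR adjusted p = 1.13e-13). CXCL8, a chemokine that attracts neutrophils, was the most abundant member in U251T, with 100, 89 and 206 counts in U251P and 8, 13 and 2 counts in U251T. SRGAP2C, a partial duplicate in the human lineage, had 47, 37 and 58 counts in U251P and 0 counts in each U251T library, and its counts are uncertain because its paralogs are nearly identical. The list overlaps with the class I antigen list in 6 genes and covers few genes, and whether a rodent source of RNA is present was not tested.

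Lineage genes differed in both directions, with neural progenitor genes present in U251P and near 0 in U251T, and GFAP, COL1A1 and COL3A1 present in U251T and low in U251P. Of 31 glial and glioma genes, 18 were tested, 4 were higher, 13 lower and 1 did not pass the test. Of these, 12 passed the filter through a single line, which largely fixes the direction of their calls. Their median log2 fold change was -3.97, or -3.45 with bounds. Their summed level was 6013, 6439 and 5903 CPM in U251P and 14100.0, 12545 and 14034 CPM in U251T, and in both lines VIM was the most abundant member.

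GFAP (ENSG00000131095, chr17:44903161-44916937, minus strand) was 866-fold higher in U251T with a 95% counting interval from 154 to 34305 (edgeR adjusted p = 6.78e-17). CRYAB, a small heat shock protein of astrocytes and muscle, had 11, 3 and 3 counts in U251P and 96, 206 and 111 counts in U251T, a log2 fold change of 6.29 (SE 0.39, edgeR adjusted p = 5.70e-15). VIM, the mesenchymal filament vimentin, had 2959.7 ± 199 CPM in U251P and 12510.0 ± 896 in U251T, a log2 fold change of 2.08 (SE 0.18, edgeR adjusted p = 7.65e-12). ZEB1, a regulator of mesenchymal transition, had a log2 fold change of 1.68 (SE 0.17, edgeR adjusted p = 2.20e-10). These 4 genes were higher in every U251T library than in any of U251P.

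The genes that were lower in U251T are known from neural stem and glioma cells. SOX2, which maintains neural stem cells, was at least 207-fold lower in U251T (edgeR adjusted p = 3.71e-16). NES, a filament protein of progenitors, was 638-fold lower in U251T with a 95% counting interval from 218 to 3094 (edgeR adjusted p = 3.67e-21). POU3F2, a neural transcription factor, had 402, 281 and 475 counts in U251P and 0 counts in each U251T library, at least 135-fold lower in U251T (edgeR adjusted p = 7.01e-16). ALDH1A3, an enzyme of retinoic acid synthesis that marks mesenchymal glioma cells, had 4629, 3670 and 4804 counts in U251P and 1, 0 and 0 counts in U251T, 4586-fold lower in U251T with a 95% counting interval from 823 to 181150.0 (edgeR adjusted p = 1.63e-22). EGFR, the receptor of epidermal growth factor, had 363, 242 and 340 counts in U251P and 5, 3 and 3 counts in U251T, a log2 fold change of -4.85 (SE 0.33, edgeR adjusted p = 4.66e-14). PDGFRA and CD44 were present in both lines and lower in U251T, with log2 fold changes of -1.51 (SE 0.21) and -0.82 (SE 0.14). SOX9, a glial transcription factor, did not pass the test, at 135 ± 22.9 CPM in U251P and 135 ± 10.2 in U251T, a log2 fold change of -0.01 (SE 0.15, edgeR adjusted p = 0.958). In the carmofur libraries it passed the test as higher, with a change of 0.47. SOX9 passed the test as lower with at least 10 counts in every library (-0.65) and without a filter (-0.37). Members at 0 in all 6 libraries were SOX10, OLIG1, OLIG2, AQP4, BCAN, PROM1 and CHI3L1, so these genes were not detectable at this depth in either line.

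The neuronal and epithelial genes that were tested passed the filter through a single line, so the filter largely fixes the direction of their calls and medians. Of 13 neuronal genes 4 were tested, and each was lower in U251T (median -7.44, -6.61 with bounds, and -8.16 without replicate 2 of U251T). In the carmofur libraries the median of these 4 genes was -4.93. NEFL, the light neurofilament, had 2908, 2021 and 2209 counts in U251P and 0 counts in each U251T library, at least 833-fold lower in U251T (edgeR adjusted p = 1.22e-20). UCHL1, a deubiquitinase of neurons and tumour cells, had 3155, 2088 and 3698 counts in U251P and 0, 1 and 0 counts in U251T, 3129-fold lower in U251T with a 95% counting interval from 562 to 123620.0 (edgeR adjusted p = 4.51e-22). RBFOX3, a nuclear protein of neurons that was not tested, had 0 counts in each U251P library and 11, 2 and 0 counts in U251T. The summed level of the list was 1285, 1279 and 1319.8 CPM in U251P and 32.1, 6.66 and 20.4 in U251T. Of 13 epithelial genes 7 were tested, 1 was higher and 6 were lower, with a median of -5.91, -5.66 with bounds, and -6.94 over the 6 genes left without replicate 1 of U251T. KRT81, a hair keratin, was the most abundant member in U251P with 11444, 5755 and 12655 counts in U251P and 0, 1 and 1 counts in U251T, 5224-fold lower in U251T with a 95% counting interval from 1446 to 43142 (edgeR adjusted p = 2.55e-22). KRT18, a keratin of simple epithelia, had 828, 523 and 808 counts in U251P and 8, 2 and 2 counts in U251T. CDH1, which encodes E-cadherin, was the member higher in U251T, with 0 counts in each U251P library and 13, 10 and 3 counts in U251T, and EPCAM had 1 count in U251P and 0 in U251T. Keratin genes have close paralogs and pseudogenes, so single counts are uncertain.

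Fibroblast genes were mostly higher in U251T. Of 12 fibroblast and pericyte genes 9 were tested, 7 were higher, 1 lower and 1 did not pass the test. Of these, 6 passed the filter through a single line, so the filter largely fixes the direction of their calls. The median log2 fold change, which rests in part on them, was 6.87, 6.08 with bounds, and 6.22 without replicate 1 of U251P. COL3A1, a fibrillar collagen, had 0 counts in each U251P library and 277, 518 and 124 counts in U251T, at least 875-fold higher in U251T (edgeR adjusted p = 4.35e-21). PDPN, the membrane glycoprotein podoplanin, had 15, 9 and 15 counts in U251P and 899, 2012 and 356 counts in U251T, a log2 fold change of 7.82 (SE 0.21, edgeR adjusted p = 3.72e-23). FAP, a serine protease of activated fibroblasts, had 0, 1 and 1 counts in U251P and 39, 41 and 16 counts in U251T, 137-fold higher in U251T with a 95% counting interval from 36.9 to 1149 (edgeR adjusted p = 8.09e-12). DCN, the proteoglycan decorin, had 0 counts in each U251P library and 19, 32 and 20 counts in U251T, at least 67.6-fold higher in U251T (edgeR adjusted p = 1.17e-10). THY1, a surface marker of fibroblasts and neurons, went the other way, with 566, 327 and 614 counts in U251P and 0 counts in each U251T library, at least 176-fold lower in U251T (edgeR adjusted p = 1.07e-16). LUM, another fibroblast marker, was at 0 in all 6 libraries. The summed level was 143, 129 and 164 CPM in U251P and 2608, 2975 and 2831 CPM in U251T, with COL1A1 the most abundant member there.

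Few listed markers of other cell types passed the filter. ACTA2, MYH11 and CD68 did so through U251T alone and MBP through U251P alone, so the filter largely fixes their direction and the medians that rest on them. MITF also did so through U251T alone, although it was below the filter in only 1 U251P library, and its median is that of a single gene. Of 9 muscle genes 3 were tested, and ACTA2 and MYH11, which encode contractile proteins of smooth muscle, were higher in U251T. ACTA2 had 12, 2 and 6 counts in U251P and 57, 76 and 24 counts in U251T, and MYH11 had 0, 0 and 1 counts in U251P and 13, 30 and 6 counts in U251T. TPM2 did not pass the test, and the median was 4.55. All muscle genes listed summed to 202, 205 and 213 CPM in U251P and 257, 188 and 253 in U251T. CD68, a lysosomal protein of macrophages, was the tested immune gene among 12, with 6, 6 and 5 counts in U251P and 19, 24 and 10 counts in U251T (median 3.20), whereas the leukocyte marker PTPRC had 0 counts in each U251P library and 7, 0 and 1 counts in U251T. MITF was the tested melanocyte gene among 6, with 28, 24 and 17 counts in U251P and 43, 55 and 25 counts in U251T (median 2.45), and TYR was at 0 in all 6 libraries. Of 7 oligodendrocyte genes CNP and MBP were tested, with a median of -3.33, or -1.35 with bounds. This median rests on MBP, since without replicate 1 or 3 of U251P MBP no longer passed the filter and CNP alone gave -0.19 and -0.17. MBP had 19, 11 and 19 counts in U251P and 0 counts in each U251T library, while MOG was at 0 in all 6 libraries. CNP did not pass the test, at 63.8 ± 10.0 CPM in U251P and 59.6 ± 17.9 in U251T, with a log2 fold change of -0.19 (SE 0.20). It passed as higher in the carmofur libraries (0.81), and as lower with at least 10 counts in every library (-0.82) and without a filter (-0.55). No member passed the filter among 9 endothelial and 8 pluripotency and germ cell genes, with PECAM1 at 1 count and POU5F1 at 0 counts over the 6 libraries. Bulk libraries cannot tell fewer cells of a type from less RNA in each cell. The parts that mixed cells or altered transcription have in these values were not tested.

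**Figure D4:**
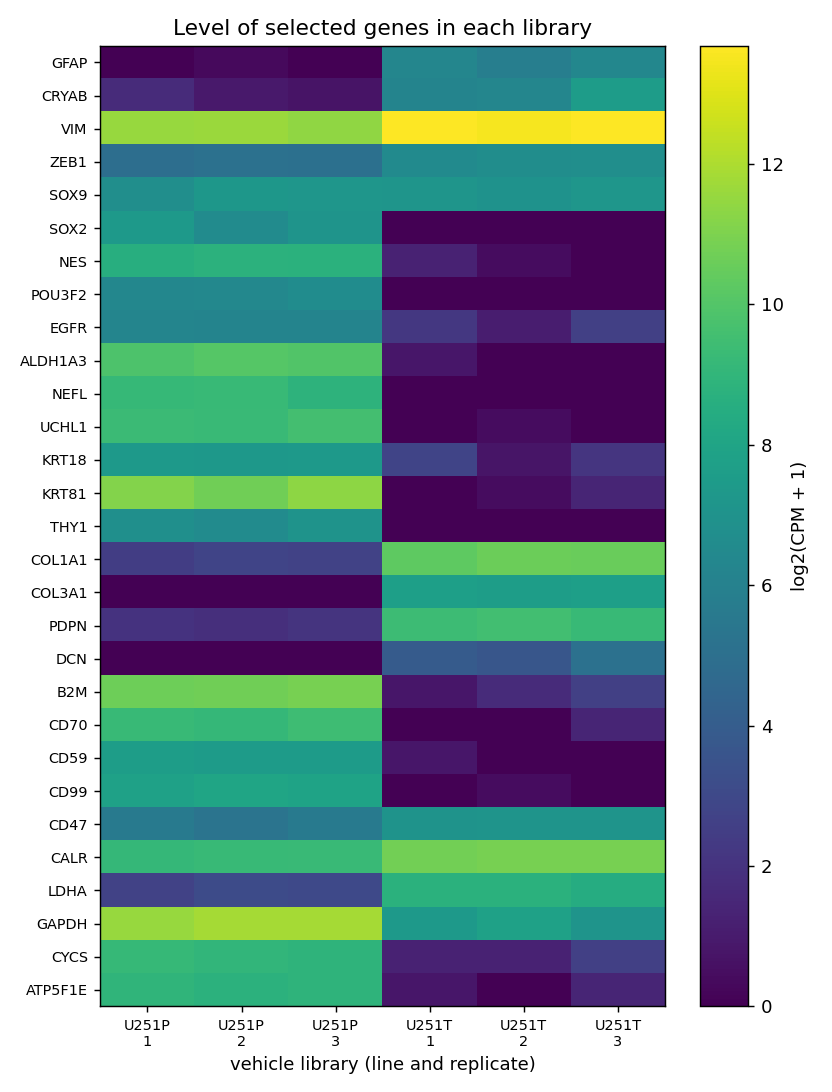
Level of selected genes, as log2 of CPM plus 1, with a row for each gene and a column for each of the 3 U251P and 3 U251T vehicle libraries. Rows from SOX2 to THY1, and B2M to CD99, are bright in U251P and dark in U251T, GFAP, CRYAB, COL1A1, COL3A1, PDPN and LDHA are the reverse, and SOX9 has like levels in both under the scaling used.

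Matrix genes changed in both directions, with both chains of type I collagen higher and the tested chains of type IV, a basement membrane collagen, lower in U251T. Of 20 collagen genes 18 were tested, 6 were higher and 12 lower, 7 of them above the filter in a single line, with a median log2 fold change of -1.95. Their summed level was 1278, 1459 and 1518 CPM in U251P and 3051, 3319.6 and 3344 CPM in U251T, so the sum rose, although 12 members were lower. COL1A1 (ENSG00000108821, chr17:50183289-50201632, minus strand), a chain of type I collagen, had 23, 20 and 27 counts in U251P and 1667, 4147 and 886 counts in U251T, a log2 fold change of 8.06 (SE 0.21, edgeR adjusted p = 3.52e-23). COL1A2, its partner chain, had a log2 fold change of 4.90 (SE 0.17, edgeR adjusted p = 4.86e-21). COL12A1, which binds type I fibrils, had 93, 107 and 167 counts in U251P and 936, 1788 and 420 counts in U251T, a log2 fold change of 4.62 (SE 0.19, edgeR adjusted p = 2.21e-19). COL4A2, a chain of basement membrane collagen, had 432, 411 and 531 counts in U251P and 2, 2 and 0 counts in U251T, a log2 fold change of -6.86 (SE 0.36, edgeR adjusted p = 1.44e-16). COL11A1 was the most abundant collagen of U251P on the CPM scale, with 2136, 1548 and 2332 counts in U251P and 60, 95 and 22 counts in U251T, a log2 fold change of -3.55 (SE 0.17, edgeR adjusted p = 8.54e-18).

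Partner chains of type VI collagen changed in opposite directions, and those of type IV were both lower but by different amounts. Type VI collagen is built from alpha chains of which COL6A1 had 948, 632 and 1038 counts in U251P and 6, 17 and 3 counts in U251T, COL6A2 had 80, 60 and 111 counts in U251P and 2, 11 and 0 counts in U251T and COL6A3 had 8, 6 and 8 counts in U251P and 123, 342 and 56 counts in U251T. The first pair were lower in U251T, with log2 fold changes of -5.13 (SE 0.23) and -2.78 (SE 0.44), and COL6A3 was higher, with 5.97 (SE 0.26). In type IV collagen, COL4A1 was at 25.7 ± 3.26 CPM in U251T and COL4A2 at 0.744 ± 0.746, against 73.3 ± 23.3 and 106 ± 17.5 in U251P (SD, n = 3). COL4A1 and COL4A2 share a promoter on opposite strands, and their log2 fold changes were -1.52 (SE 0.23) and -6.86 (SE 0.36).

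Laminins and other basement membrane genes had 3 members higher and 8 lower among 11 of 13 tested, with a median of -1.55, and 6 passed the filter through a single line. LAMA5, a laminin alpha chain, had 373, 279 and 395 counts in U251P and 0, 1 and 0 counts in U251T, 366-fold lower in U251T with a 95% counting interval from 65.6 to 14488 (edgeR adjusted p = 2.61e-16). NID2, a nidogen that links laminin and collagen, had 0 counts in each U251P library and 29, 42 and 20 counts in U251T, at least 86.7-fold higher in U251T (edgeR adjusted p = 1.11e-11), while its relative NID1 had 224, 218 and 301 counts in U251P and 17, 16 and 5 counts in U251T. NID1 was the higher of the pair in U251P, and NID2 in U251T, as counts at the 3′ end. Their list summed to 618, 679 and 752 CPM in U251P and 266, 249 and 272 in U251T.

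Matrix glycoproteins had 8 members higher and 12 lower among 20 of 23 tested, with a median of -2.01, and 8 passed through a single line. FBN1, which encodes fibrillin, had 611, 486 and 759 counts in U251P and 1918, 3402 and 886 counts in U251T, a log2 fold change of 3.31 (SE 0.15, edgeR adjusted p = 8.54e-18). FN1, fibronectin, had 138, 118 and 335 counts in U251P and 803, 973 and 330 counts in U251T, a log2 fold change of 3.51 (SE 0.23, edgeR adjusted p = 3.28e-14). Several abundant genes of U251P were at or near 0 in U251T. SPP1, osteopontin, had 1248, 1320 and 1187 counts in U251P and 0 counts in each U251T library, at least 438-fold lower in U251T (edgeR adjusted p = 2.67e-18). EFEMP1, a fibulin, had 1102, 788 and 934 counts in U251P and 0 counts in each U251T library, at least 329-fold lower in U251T (edgeR adjusted p = 5.82e-19). VCAN, the proteoglycan versican, had 970, 770 and 956 counts in U251P and 0, 3 and 0 counts in U251T, 315-fold lower in U251T with a 95% counting interval from 108 to 1526 (edgeR adjusted p = 3.50e-19). The summed level of the list was 4008, 4608 and 4124 CPM in U251P and 4902, 3929 and 5257 CPM in U251T, which overlap.

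Matrix enzymes and their inhibitors had 7 members higher, 9 lower and 1 that did not pass the test among 17 of 21 tested, with a median of -0.73, and 6 passed the filter through a single line. MMP9, a gelatinase, had 0 counts in each U251P library and 21, 28 and 2 counts in U251T, at least 48.6-fold higher in U251T (edgeR adjusted p = 5.64e-10). TIMP2, an inhibitor of these proteases, had a log2 fold change of 2.04 (SE 0.14, edgeR adjusted p = 9.21e-14). LOX, which cross-links collagen, had 39, 51 and 42 counts in U251P and 157, 151 and 85 counts in U251T, a log2 fold change of 3.28 (SE 0.28, edgeR adjusted p = 8.95e-12), whereas LOXL2, a related enzyme, had 280, 254 and 348 counts in U251P and 7, 3 and 0 counts in U251T, a log2 fold change of -4.92 (SE 0.37, edgeR adjusted p = 5.49e-13). PLAUR, the urokinase receptor, had 1588, 1150 and 1702 counts in U251P and 3, 0 and 2 counts in U251T, a log2 fold change of -8.20 (SE 0.33, edgeR adjusted p = 2.13e-19).

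Integrins and adhesion receptors had 6 members higher, 12 lower and 3 that did not pass the test among 21 of 24 tested, with a median of -1.31, and 7 passed through a single line. ITGA1, a collagen receptor subunit, had 8, 2 and 5 counts in U251P and 130, 219 and 51 counts in U251T, a log2 fold change of 6.23 (SE 0.30, edgeR adjusted p = 1.28e-17), and ITGA2, another collagen receptor subunit, had 301, 233 and 355 counts in U251P and 0 counts in each U251T library, at least 104-fold lower in U251T (edgeR adjusted p = 7.57e-15). These related subunits went in opposite directions. NCAM1, the neural cell adhesion molecule, had 96, 112 and 151 counts in U251P and 618, 1518 and 277 counts in U251T, a log2 fold change of 4.18 (SE 0.18, edgeR adjusted p = 1.20e-18). CD151, a tetraspanin, had 674, 550 and 785 counts in U251P and 0 counts in each U251T library, at least 234-fold lower in U251T (edgeR adjusted p = 6.61e-18). MCAM, an adhesion molecule of melanoma and vessel cells, had 650, 481 and 767 counts in U251P and 0 counts in each U251T library, at least 221-fold lower in U251T (edgeR adjusted p = 9.87e-18). CDH2, N-cadherin, was present in both lines, with a log2 fold change of -2.70 (SE 0.16, edgeR adjusted p = 1.70e-15). The list summed to 5258, 5256 and 5410.1 CPM in U251P and 4896, 5016 and 4987 CPM in U251T.

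Among metabolic genes, those of glycolysis were mostly lower in U251T. Of 21 genes 20 were tested, 3 were higher and 17 lower, 5 of them through a single line, and their median was -2.99 on the log2 scale. The summed level was 10418, 11374 and 12429 CPM in U251P and 1923, 2200.4 and 1725 in U251T. GAPDH, the most abundant member in U251P, had 15294, 12357 and 17508 counts in U251P and 226, 601 and 78 counts in U251T, a log2 fold change of -4.26 (SE 0.19, edgeR adjusted p = 2.27e-18). PKM, pyruvate kinase, had a log2 fold change of -3.42 (SE 0.17, edgeR adjusted p = 3.58e-17). SLC16A3, a lactate exporter, had 1603, 1123 and 2123 counts in U251P and 1, 0 and 0 counts in U251T, 1697-fold lower in U251T with a 95% counting interval from 304 to 67047 (edgeR adjusted p = 2.64e-20). The exceptions included the lactate enzyme itself, since LDHA had 28, 26 and 34 counts in U251P and 572, 1171 and 210 counts in U251T, a log2 fold change of 5.92 (SE 0.19, edgeR adjusted p = 8.48e-22), while LDHB, which makes the other subunit of lactate dehydrogenase, had 2968, 1891 and 2584 counts in U251P and 161, 435 and 75 counts in U251T, a log2 fold change of -2.02 (SE 0.15, edgeR adjusted p = 3.42e-13). HK2, a hexokinase, was also higher, with a log2 fold change of 1.67 (SE 0.27, edgeR adjusted p = 2.02e-06). Glycolytic genes have many processed pseudogenes, so their counts are uncertain where reads match a copy.

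Subunits of the respiratory chain that are encoded in the nucleus did not change together, although they are built into the same complexes. Of 38 genes, each tested, 8 were higher, 25 lower and 5 did not pass the test, with a median of -1.54, and 6 passed through a single line. Their summed level was 7665, 6944 and 7121 CPM in U251P and 4905, 6179 and 5116 CPM in U251T, beside the far larger difference in the mitochondrial genome. CYCS, cytochrome c, had 2824, 1777 and 2290 counts in U251P and 2, 4 and 3 counts in U251T, a log2 fold change of -8.02 (SE 0.27, edgeR adjusted p = 3.06e-21). ATP5F1E, a subunit of the ATP synthase, had 2484, 1483 and 2307 counts in U251P and 1, 0 and 1 counts in U251T, 1098-fold lower in U251T with a 95% counting interval from 304 to 9068 (edgeR adjusted p = 3.66e-21). Other subunits of the same enzyme were higher, such as ATP5F1C with 286, 192 and 175 counts in U251P and 451, 923 and 232 counts in U251T, a log2 fold change of 2.83 (SE 0.17, edgeR adjusted p = 1.49e-15), and ATP5MC3, the most abundant member in U251T, with a log2 fold change of 2.32 (SE 0.16, edgeR adjusted p = 1.34e-13). SDHC, a subunit of succinate dehydrogenase, had 384, 274 and 220 counts in U251P and 0 counts in each U251T library, at least 102-fold lower in U251T (edgeR adjusted p = 1.17e-13), beside SDHB of the same enzyme, which did not pass the test with 376, 254 and 252 counts in U251P and 86, 222 and 35 counts in U251T. SDHB passed it as lower with at least 10 counts in every library. COX6C had 1279, 823 and 1037 counts in U251P and 0, 2 and 1 counts in U251T, 366-fold lower in U251T with a 95% counting interval from 125 to 1777 (edgeR adjusted p = 1.05e-19). Of the 38 subunits, 5 had at most 3 counts over the U251T libraries. Cytochrome c and several small subunits have many pseudogenes, so these counts are uncertain.

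Genes of serine synthesis and one-carbon metabolism had 4 members higher, 7 lower and 1 that did not pass the test, of 12 that were each tested, with a median of -3.43, and 6 passed through a single line. PHGDH and PSAT1, which catalyse successive steps of serine synthesis, were low in U251T. PHGDH had 647, 513 and 678 counts in U251P and 5, 16 and 3 counts in U251T, and PSAT1 had 1373, 1141 and 1258 counts in U251P and 3, 8 and 2 counts in U251T. MTHFD2, a mitochondrial folate enzyme, had 1314, 1289 and 1501 counts in U251P and 1, 11 and 2 counts in U251T, a log2 fold change of -6.71 (SE 0.28, edgeR adjusted p = 4.68e-19). TYMS, thymidylate synthase, had a log2 fold change of -6.05 (SE 0.25, edgeR adjusted p = 3.80e-19). ALDH1L2, which oxidises formyl folate in mitochondria, was the reverse, with 7, 9 and 24 counts in U251P and 145, 375 and 66 counts in U251T, a log2 fold change of 5.31 (SE 0.27, edgeR adjusted p = 4.03e-17). SHMT1 was also higher, with a log2 fold change of 2.07 (SE 0.20, edgeR adjusted p = 1.27e-10). In sterol and fatty acid synthesis 4 genes were higher, 15 lower and 3 did not pass the test among 22 of 23 tested, with a median of -1.47, and 9 passed through a single line. FASN, fatty acid synthase, had 837, 635 and 1040 counts in U251P and 5, 2 and 1 counts in U251T, a log2 fold change of -6.73 (SE 0.30, edgeR adjusted p = 3.76e-18). MSMO1, an enzyme of cholesterol synthesis, was higher in U251T, with 66, 49 and 67 counts in U251P and 141, 465 and 48 counts in U251T, a log2 fold change of 3.19 (SE 0.22, edgeR adjusted p = 5.33e-14).

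Sphingolipid genes had 5 members higher and 14 lower among 19 tested of 26 in the table, with a median of -1.85, and 6 passed through a single line. ASAH1, which encodes acid ceramidase, the enzyme that carmofur inhibits, had 210, 123 and 161 counts in U251P and 11, 20 and 6 counts in U251T, a log2 fold change of -2.19 (SE 0.28, edgeR adjusted p = 3.22e-08). PSAP, whose products activate lysosomal sphingolipid hydrolases, had 2352, 1711 and 2917 counts in U251P and 5, 3 and 0 counts in U251T, a log2 fold change of -8.21 (SE 0.29, edgeR adjusted p = 1.25e-20). SGMS1, a sphingomyelin synthase, had 118, 91 and 132 counts in U251P and 262, 934 and 129 counts in U251T, a log2 fold change of 3.32 (SE 0.19, edgeR adjusted p = 6.91e-16). UGCG, which glucosylates ceramide, had a log2 fold change of 2.01 (SE 0.15, edgeR adjusted p = 2.30e-13). Other genes of synthesis were lower, such as CERS5, a ceramide synthase, with a log2 fold change of -2.88 (SE 0.43, edgeR adjusted p = 4.77e-07). The summed level was 1004, 1025 and 1106 CPM in U251P and 798, 981 and 841 CPM in U251T, where each library lay below each of U251P.

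Detoxification genes had 3 members higher, 22 lower and 3 that did not pass the test among 28 of 33 tested, with a median of -2.76, and 13 passed through a single line. Their summed level was 6829.7, 6458 and 7039 CPM in U251P and 836, 873 and 853 in U251T. NQO1, a quinone reductase, had 1071, 856 and 1106 counts in U251P and 5, 3 and 0 counts in U251T, a log2 fold change of -7.02 (SE 0.30, edgeR adjusted p = 6.87e-19). PRDX1, a peroxidase, was the most abundant member in U251P, with a log2 fold change of -4.27 (SE 0.17, edgeR adjusted p = 1.47e-19). MT2A, a metal-binding metallothionein, had 6047, 3523 and 6097 counts in U251P and 44, 22 and 4 counts in U251T, a log2 fold change of -6.20 (SE 0.28, edgeR adjusted p = 3.82e-18). GSTM1, a glutathione transferase that many people lack through a common deletion, had 0 counts in each U251P library and 19, 28 and 7 counts in U251T, at least 51.4-fold higher in U251T (edgeR adjusted p = 6.86e-11), and its counts are uncertain because its paralogs are similar.

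The list for repair of temozolomide damage and drug export was chosen because the title of the deposited series names resistance to temozolomide, a methylating drug. It had 4 members higher, 8 lower and 4 that did not pass the test among 16 of 17 tested, with a median of -0.48, and 7 passed through a single line. MGMT, which removes the methyl group directly, had 0 counts in each U251P library and 1, 0 and 0 counts in U251T, so that it was not detectable as expressed in either line at this depth. PMS2, a mismatch repair gene with pseudogene copies, had 95, 53 and 105 counts in U251P and 3, 1 and 0 counts in U251T, a log2 fold change of -4.37 (SE 0.54, edgeR adjusted p = 1.71e-08), and MSH6, another gene of that pathway, had a log2 fold change of 0.73 (SE 0.14, edgeR adjusted p = 2.03e-05), which was -0.07 in the carmofur libraries and did not pass the test with at least 10 counts in every library. Drug exporters went both ways. ABCB1 had 0, 2 and 1 counts in U251P and 130, 231 and 65 counts in U251T, 406-fold higher in U251T with a 95% counting interval from 138 to 1975 (edgeR adjusted p = 2.92e-18), and ABCG2 had 2, 0 and 2 counts in U251P and 27, 67 and 17 counts in U251T, a log2 fold change of 6.14 (SE 0.51, edgeR adjusted p = 3.72e-12). ABCB1 and ABCG2 were near 0 in every U251P library, whereas ABCC1, another exporter, was lower in U251T, with 190, 154 and 214 counts in U251P and 7, 10 and 0 counts in U251T, a log2 fold change of -3.53 (SE 0.35, edgeR adjusted p = 1.60e-10).

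Most tested genes of class I antigen presentation were lower in U251T. This complex displays peptides, made by the proteasome and then carried into the endoplasmic reticulum by the TAP transporter, to T cells. Of 24 genes 19 were tested, 1 was higher, 15 were lower and 3 did not pass the test. Of these, 12 passed through a single line, so the filter largely fixes the direction of their calls. The median log2 fold change, which rests in part on them, was -5.04, or -3.77 with bounds. B2M (ENSG00000166710, chr15:44711487-44718877, plus strand), the light chain named above, had a log2 fold change of -9.60 (SE 0.28, edgeR adjusted p = 1.34e-22). HLA-B had 513, 360 and 743 counts in U251P and 3, 0 and 1 counts in U251T, HLA-C had 71, 64 and 66 counts in U251P and 0, 2 and 0 counts in U251T and HLA-E had 174, 124 and 264 counts in U251P and 1, 0 and 0 counts in U251T. HLA-B, HLA-C and HLA-E were thus near 0 in U251T, and their counts are uncertain in detail because the genes are polymorphic and alike. TAP2, a chain of the peptide transporter, had 450, 276 and 400 counts in U251P and 1, 0 and 0 counts in U251T, 394-fold lower in U251T with a 95% counting interval from 70.6 to 15580.0 (edgeR adjusted p = 2.63e-16). MICA, a stress ligand of natural killer cells, had 426, 258 and 379 counts in U251P and 0 counts in each U251T library, at least 124-fold lower in U251T (edgeR adjusted p = 1.07e-15).

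The general chaperones of the same pathway differed less. CALR, calreticulin, was the member higher in U251T, with 2755, 2006 and 3025 counts in U251P and 2308, 5029 and 1097 counts in U251T, a log2 fold change of 1.62 (SE 0.14, edgeR adjusted p = 1.52e-11). CANX, calnexin, did not pass the test, at 874 ± 49.5 CPM in U251P and 866 ± 28.0 CPM in U251T. PDIA3, a disulfide isomerase, did not pass it either, at 1130.2 ± 131 and 1150.0 ± 69.9 CPM, but both were lower with at least 10 counts in every library, with log2 fold changes of -0.65 for CANX and -0.61 for PDIA3. The summed level of the list, 4918, 5113 and 5796 CPM in U251P and 3868, 3935 and 3959 CPM in U251T, rests in U251T on these chaperones, with CALR the most abundant member there and B2M in U251P. Of the 16 members at 10 CPM or more in U251P, 7 had at most 3 counts over the U251T libraries. No class II gene among 11 passed the filter, each had at most 3 counts in either line, and CD74 and HLA-DRA were at 0 in all 6 libraries.

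Interferon response genes had 2 members higher, 9 lower and 4 that did not pass the test among 15 of 24 tested. Of the 15, 10 passed through a single line, which largely fixes their direction. The median was -3.29, and it was -5.71 without replicate 1 of U251T and -2.62 without its replicate 2. BST2, the antiviral membrane protein tetherin, had 702, 472 and 747 counts in U251P and 0 counts in each U251T library, at least 224-fold lower in U251T (edgeR adjusted p = 6.42e-18). IFI44 had 159, 102 and 144 counts in U251P and 0 counts in each U251T library, at least 47.2-fold lower in U251T (edgeR adjusted p = 1.16e-11). IFITM1, which blocks viral entry, was the reverse, with 0, 0 and 1 counts in U251P and 25, 79 and 10 counts in U251T, 326-fold higher in U251T with a 95% counting interval from 57.3 to 12976 (edgeR adjusted p = 2.26e-12), and GBP1, a guanylate-binding protein, had a log2 fold change of 1.93 (SE 0.21, edgeR adjusted p = 1.57e-09). The list summed to 489, 448 and 611 CPM in U251P and 204, 236 and 178 CPM in U251T.

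Checkpoint and surface antigen genes had 1 member higher and 13 lower among 14 of 17 tested, with a median of -4.87, or -5.58 without replicate 2 of U251T. Of the 14, 8 passed through a single line, which largely fixes their direction. CD70, a ligand of the tumour necrosis factor family, had 3010, 1866 and 3386 counts in U251P and 0, 0 and 1 counts in U251T, 2892-fold lower in U251T with a 95% counting interval from 519 to 114230.0 (edgeR adjusted p = 2.22e-21). CD59, which blocks the complement pore, had 961, 612 and 865 counts in U251P and 1, 0 and 0 counts in U251T, 853-fold lower in U251T with a 95% counting interval from 153 to 33717 (edgeR adjusted p = 2.99e-19). CD99, an adhesion glycoprotein, had 1142, 902 and 1174 counts in U251P and 0, 1 and 0 counts in U251T, 1126-fold lower in U251T with a 95% counting interval from 202 to 44500.0 (edgeR adjusted p = 2.57e-20). CD274, which encodes PD-L1, had 189, 108 and 162 counts in U251P and 7, 11 and 6 counts in U251T, a log2 fold change of -2.68 (SE 0.32, edgeR adjusted p = 9.54e-09). CD47, the signal that inhibits phagocytosis, was the member higher in U251T, with 239, 126 and 236 counts in U251P and 174, 358 and 80 counts in U251T, a log2 fold change of 1.56 (SE 0.16, edgeR adjusted p = 3.19e-10). The list summed to 1888, 1899 and 1947 CPM in U251P and 258, 304 and 285 CPM in U251T.

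Genes that nearly all cells use gave a reference for the size of these differences. Of 31 such abundant genes tested, 9 were higher, 17 lower and 5 did not pass the test, with a median of -0.42, and 1 passed the filter through a single line. Their summed level was 35336, 32989 and 33066 CPM in U251P and 40482, 43864 and 38542 in U251T. PABPC1, the most abundant gene of U251T on the CPM scale, had 3899 ± 337 CPM in U251P and 18497 ± 1435 in U251T, a log2 fold change of 2.25 (SE 0.19, edgeR adjusted p = 5.13e-12). HSP90AB1, a chaperone, had 24236, 12738 and 21832 counts in U251P and 543, 1432 and 240 counts in U251T, a log2 fold change of -3.28 (SE 0.18, edgeR adjusted p = 1.97e-16). TMSB10 and TMSB4X encode related actin-binding peptides. TMSB10 had 6869, 4565 and 6983 counts in U251P and 7404, 13944 and 2999 counts in U251T, and TMSB4X had 3633, 2569 and 2000 counts in U251P and 20, 12 and 2 counts in U251T. Their log2 fold changes of 1.92 (SE 0.16) and -6.39 (SE 0.30) had opposite signs.

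Of 65 cytosolic ribosomal protein genes, each tested, 11 were higher, 50 lower and 4 did not pass the test, with a median of -1.58, and 5 passed through a single line. Ribosomal proteins are made in near equal numbers in a cell, yet the members ranged widely. RPLP2 had 5476, 3437 and 5105 counts in U251P and 7, 1 and 0 counts in U251T, a log2 fold change of -9.20 (SE 0.32, edgeR adjusted p = 5.50e-21). RPL7A had 5259, 3022 and 4065 counts in U251P and 4, 2 and 3 counts in U251T, a log2 fold change of -8.84 (SE 0.29, edgeR adjusted p = 1.47e-21). RPL34 had 2716, 1498 and 2294 counts in U251P and 2614, 6110 and 1159 counts in U251T, a log2 fold change of 2.08 (SE 0.15, edgeR adjusted p = 1.78e-13). RPL35 did not pass the test, at 824 ± 55.3 CPM in U251P and 819.7 ± 183 in U251T. It passed as lower with at least 10 counts in every library and without a filter. Each of these genes has processed pseudogenes, so reads could be shared between gene and copy. The list summed to 64156, 55733 and 60806 CPM in U251P and 29199, 35211 and 28444 in U251T.

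Proliferation genes had 4 members higher, 12 lower and 5 that did not pass the test, of 21 that were each tested, with a median of -1.52, and 3 passed through a single line. MKI67, the proliferation antigen, had 8916, 5441 and 9692 counts in U251P and 77, 130 and 43 counts in U251T, a log2 fold change of -4.99 (SE 0.19, edgeR adjusted p = 4.49e-20). BIRC5, survivin, had 1691, 1057 and 1490 counts in U251P and 1, 6 and 0 counts in U251T, a log2 fold change of -7.70 (SE 0.28, edgeR adjusted p = 2.64e-20). TOP2A, a topoisomerase of dividing cells and the most abundant member in both lines, did not pass the test with 10860, 6151 and 11304 counts in U251P and 2873, 5312 and 1174 counts in U251T. TOP2A passed it as lower with at least 10 counts in every library (-0.68), without a filter (-0.42) and in the carmofur libraries (-2.01). CCNA2 and CCNB2, mitotic cyclins, were higher in U251T, with log2 fold changes of 1.43 (SE 0.15) and 1.17 (SE 0.15), but lower in the carmofur libraries, with -1.17 and -1.59. All 4 members higher here had the other sign there, and over the list the median was -3.06. The list summed to 7718, 6822 and 7979 CPM in U251P and 4162, 4379 and 4076 CPM in U251T.

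**Figure D5:**
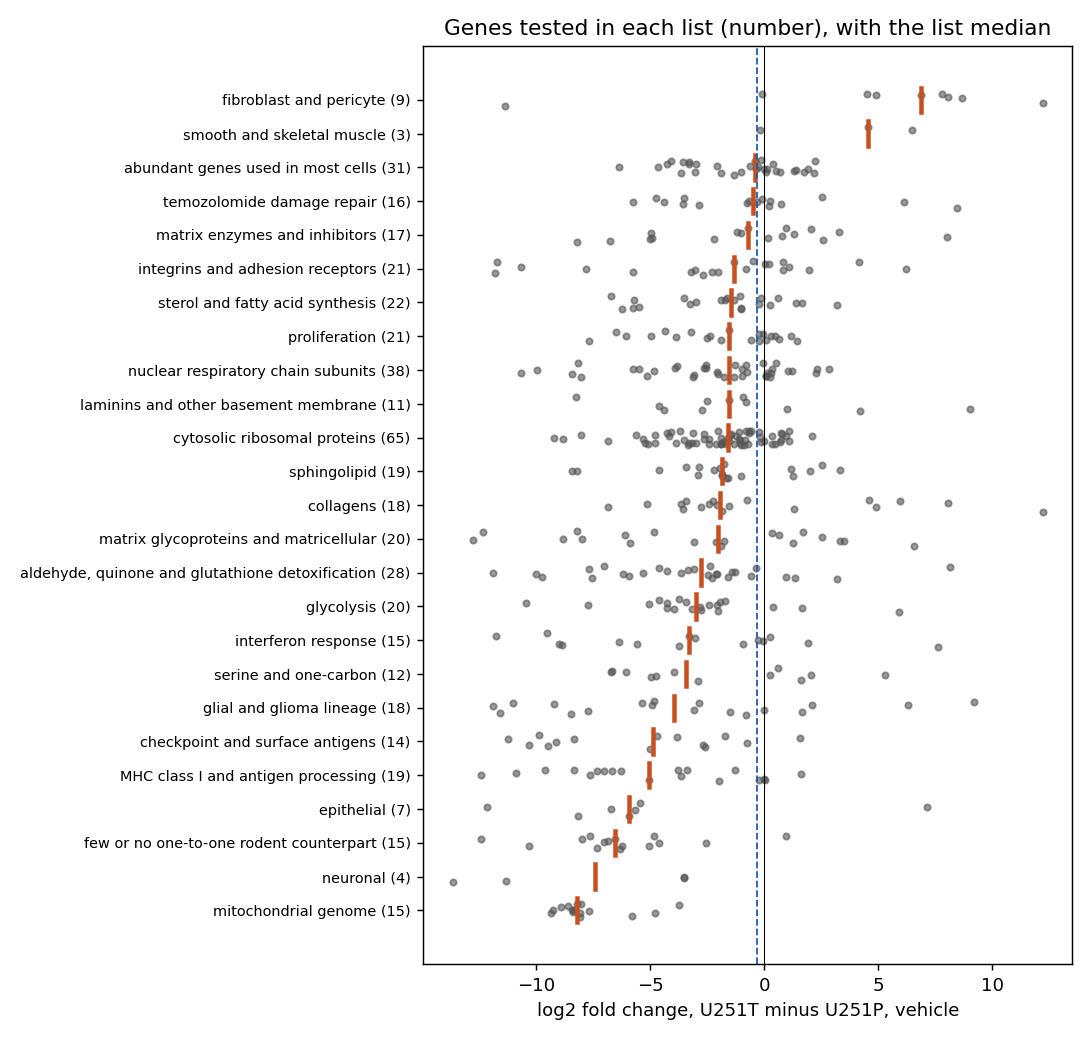
Log2 fold change, U251T minus U251P, of each tested gene (grey points) in each list with at least 3 tested genes, with the list's median (orange bar), the median of all genes tested at -0.33 (dashed line) and 0 (solid line). The number tested is in brackets, and values of genes at 0 in a line depend on the fit. Fibroblast genes have the highest median, 6.87, and genes of the mitochondrial genome the lowest, -8.23, among the lists shown.

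Several list medians rest on genes with under 10 counts in some library. Over the members with at least 10 counts in every library, the reported log2 fold changes had a positive median in lists whose median over all tested members was negative, 1.64 over 6 genes for the sphingolipid list, 1.10 over 4 genes for serine and one-carbon metabolism, 0.95 over 10 genes for matrix glycoproteins and 0.78 over 11 genes for matrix enzymes. This also held for collagens (0.27 over 8 genes), sterol (0.27 over 9), interferon (0.25 over 3) and temozolomide genes (0.23 over 6). In the other direction, the muscle list had -0.17 over 1 gene. Some medians stayed negative but were much smaller in size, -0.013 over 5 class I antigen genes, -0.0087 over 5 glial and glioma genes and -0.74 over 3 checkpoint genes. Others changed less, with -8.08 over 11 genes of the mitochondrial genome and -2.40 over 13 of glycolysis. Refitted on such genes alone, the sphingolipid, serine, matrix glycoprotein and matrix enzyme medians were 1.01, 0.47, 0.32 and 0.15. Those of the collagen, sterol, interferon and temozolomide lists turned negative when refitted.

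The same lines were sequenced with carmofur, in 6 libraries that the vehicle comparison does not use. Of 11667 genes tested there by edgeR, 4328 (37.1%) were higher and 5723 (49.1%) lower in U251T. Genes of the mitochondrial genome took 20.5%, 26.2% and 23.7% of the counts in the carmofur libraries of U251P and 0.559%, 0.444% and 0.881% in those of U251T, and pseudogenes 0.272%, 0.289% and 0.297% and 11.7%, 12.4% and 11.7%. The difference between the lines itself changed with carmofur in 560 of 13070 genes (4.28%) by the interaction term in edgeR. In each treatment every U251T library had a lower mitochondrial and a higher pseudogene share than every U251P library.

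Directions hold relative to a scaling that assumes most genes alike, and the median of the genes shared with each alternative moved by -0.63 (log2) with at least 10 counts in every library, -0.36 without a filter, -0.15 with DESeq2, -0.13 with all 12 libraries in the fit and -0.11 with protein-coding nuclear genes alone. Of 421 list genes that passed the test, 13 had the other sign in an alternative on the vehicle libraries, none of them named here, and with at least 10 counts in every library the medians over such genes turned negative in the collagens (from 0.27 to -0.37 over 8 genes), the interferon genes (from 0.25 to -0.38 over 3), the sterol genes (from 0.27 to -0.37 over 9) and the temozolomide list (from 0.23 to -0.40 over 6).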

How the data were processed

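Counts per gene and library were used as deposited by the authors, whose processing notes give alignment to hg38; reads were not analysed. Of 60107 gene identifiers, 56531 were in GENCODE release 29, and 40995 with a symbol held 99.1% of all counts. Genes were filtered with filterByExpr, scaled by TMM and tested with the quasi-likelihood F test of edgeR 4.0.16 with Benjamini-Hochberg adjustment over all genes tested. DESeq2 1.42.0 was the alternative test, with limma 3.58.1, R 4.3.3, Python 3.11.15, pandas 2.3.3, numpy 2.4.6, scipy 1.17.1, matplotlib 3.10.9 and Biopython 1.88. Other alternatives changed the normalization, the filter, the threshold, the gene set, the libraries in the fit and the replicate block, or left out a library. Named genes were members of 31 lists, the 10 with the smallest p in each direction whose libraries did not overlap, the 10 most abundant of either line and the 10 pseudogenes with most counts. Parents of pseudogenes, and MTCO3P12, MTATP6P1, MTCO1P40, CERS5, ABCC1 and RBFOX3, were named after their values were seen. Members and lists were chosen with earlier results of these data known. Copies were aligned to their genes with GENCODE transcripts. Some list members are not reported here.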

Additional observations from a re-analysis of the deposited data

Results flagged for a closer look

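The difference between U251T and U251P was itself different with carmofur in 560 of 13070 genes by the interaction term of edgeR, 235 with a positive and 325 with a negative term. The term was -2.70 for CCNB2 (SE 0.296, edgeR adjusted p = 1.07e-07), whose log2 fold change between the lines was 1.17 with vehicle and -1.59 with carmofur, and -2.52 for CCNA2 (SE 0.257, edgeR adjusted p = 3.29e-08), whose change was 1.43 with vehicle and -1.17 with carmofur. It was -1.89 for TOP2A and -1.72 for MKI67, which was lower in U251T in both treatments. The term was -1.95 for SHMT1, with 2.07 with vehicle and 0.04 with carmofur, and -1.14 for CDH2. Positive terms were 1.74 for HSPG2, 1.72 for ALDH1L2, 1.06 for CNP and 0.90 for COL11A1. HMOX1 was at 0 in each U251T vehicle library, so its fitted term of 5.94 (SE 1.73, edgeR adjusted p = 0.0418) depends on the fit and measures no size. The U251T carmofur libraries had totals of 969763, 1078340 and 383633 counts, and the part that depth has in these terms was not tested.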

How the results depend on the processing

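With at least 10 counts in every library, which leaves 4823 genes to test, 1863 genes were higher and 1874 lower in U251T, 317 over 4-fold higher and 513 over 4-fold lower. With protein-coding nuclear genes alone, 3142 were higher and 1079 over 4-fold higher. Without a filter 6360 were over 4-fold lower. Leaving out each library in turn gave 4331 to 4905 genes higher, 5643 to 6159 lower, 2327 to 2838 over 4-fold higher and 4167 to 4565 over 4-fold lower. The pseudogene share of U251P was 0.365% of counts outside the mitochondrial genome, and the mitochondrial share of U251T 0.468% of protein-coding and mitochondrial counts. At equal depth, 8584 genes had at least 5 reads in U251P and 7389 in U251T. Without each library in turn, the pseudogene share was 0.276 to 0.293% in U251P and 10.9 to 11.4% in U251T, the mitochondrial share 20.0 to 22.2% and 0.391 to 0.442%, the genes detected at equal depth 12678 to 12902 and 11505 to 11757, and the copy counts per 100 parent counts 0.340 to 0.370 and 27.9 to 28.3.

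Among the named genes, the log2 fold change took the other sign in the carmofur libraries for SOX9 (0.47), CNP (0.81), MSH6 (-0.065), CCNA2 (-1.17) and CCNB2 (-1.59). With at least 10 counts in every library it did so for SDHB (-0.56), PDIA3 (-0.61) and RPL35 (-0.63), and without a filter for PDIA3 (-0.34) and RPL35 (-0.36). SDHB, PDIA3 and RPL35 did not pass the test as reported, but each passed it as lower in the alternatives where its sign changed. With at least 10 counts in every library HSPG2 (0.38) and MSH6 (0.10) no longer passed the test, nor did SHMT1 (0.045) in the carmofur libraries. SOX9 (-0.65), CNP (-0.82), CANX (-0.65) and TOP2A (-0.68) passed it with at least 10 counts in every library, as they did without a filter (-0.37, -0.55, -0.38 and -0.42), and TOP2A also in the carmofur libraries (-2.01). In the carmofur libraries SOX9 and CNP passed it as higher. Of 142 named genes tested, 130 kept their direction and side of the threshold in each alternative that could give a value, and 2287 of 2309 values did so. Each leave-one-out value did so where it could be fitted. The cause was not tested for any of these changes.

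With replicate number as a block, 4661 genes were higher and 5609 lower. The labels do not say that equal numbers were handled together, and correlations across genes of the deviation from the line's mean, between libraries of equal number, were -0.040, 0.012 and 0.014.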
